A study of Mus musculus with 61 samples.

Results

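Transcripts of 6 genes of the anti-Müllerian hormone, inhibin and activin system of the ovarian follicle are described here in single mouse oocytes and granulosa cells. The genes were chosen by name: Amh, Inha, Inhba and Inhbb, which encode hormone chains, Amhr2, which encodes the receptor for anti-Müllerian hormone, and Fst, which encodes follistatin. They are 6 of the 23927 gene rows of the count table, and all 6 had a row. The series profiled single cells from ovaries of WT (wild-type) mice of the outbred CD-1 stock at postnatal day 5, and its title concerns JNK in oocytes and the loss of ovarian function after anti-cancer agents. It holds 61 cells: 32 oocytes, with 16 control and 16 doxorubicin cells, and 29 granulosa cells, with 16 control and 13 doxorubicin cells. All cells were taken 6 hours after 1 intraperitoneal treatment, which was solvent for the control groups and doxorubicin, a DNA-damaging anti-cancer drug, for the other groups. The unit of the doxorubicin dose in the labels cannot be read as a dose, so no dose is given. No animal, litter or culture is named for any cell. Each group therefore counts as 1 sample, and no difference given below was tested or has a replicate check.

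Anti-Müllerian hormone, the inhibins and the activins are dimeric hormones of the TGF-beta family that granulosa cells release. Inhibins pair the alpha chain encoded by Inha with a beta chain encoded by Inhba or Inhbb, while activins are pairs of beta chains. Anti-Müllerian hormone acts through its own type II receptor and restrains the recruitment of resting follicles, inhibin lowers the release of follicle-stimulating hormone by the pituitary, and follistatin binds activin and keeps it from its receptors.

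The upstream sequences of Amhr2, read in 27 of the 29 granulosa cells, and of Inhba, read in 2 of them, are shown first, because the contrast between these genes runs through the results. Of the 6 members, 4 had an entry in the RefSeq promoter table (GRCm38.p6), and Amh and Fst did not. The 250 bases before the start of Amhr2 (chr15:102445117-102445366, plus strand) and of Inhba (chr13:16011601-16011850, plus strand) read 5′ to 3′ as follows, with CAAGGTCA in capitals. These letters match the element that the steroidogenic factor encoded by Nr5a1 is known to bind.
Amhr2: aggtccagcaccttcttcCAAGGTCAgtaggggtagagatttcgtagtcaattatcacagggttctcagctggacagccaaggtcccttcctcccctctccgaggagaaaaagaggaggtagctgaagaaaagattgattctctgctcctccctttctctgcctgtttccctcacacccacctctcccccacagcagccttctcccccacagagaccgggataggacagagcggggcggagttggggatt
Inhba: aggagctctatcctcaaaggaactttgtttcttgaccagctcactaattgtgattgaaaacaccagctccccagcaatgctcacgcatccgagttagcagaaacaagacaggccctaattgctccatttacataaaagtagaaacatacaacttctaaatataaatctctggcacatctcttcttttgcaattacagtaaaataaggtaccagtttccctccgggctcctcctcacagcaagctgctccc
The match in Amhr2 begins 232 bases before the start, on the plus strand. CAAGGTCA or its reverse complement TGACCTTG is in 1.33% of the 32536 windows of the same length in the table. AGATAA or its reverse complement TTATCT, the letters that GATA factors are known to bind, is in 9.97% of them. The 4 member windows held 1 match to the first motif, the one shown, and 0 matches to the second. The Inha window (chr1:75507359-75507608, plus strand) lies inside the gene span used below, 75507077 to 75510366. The bases before the start of that span were therefore not searched. A match of letters is a description of the window and not a bound site.

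Total counts per cell lay between 6834594 and 31262609, with medians for oocytes of 10941952 (control) and 11012307 (doxorubicin) and for granulosa cells of 11478173 (control) and 10826423 (doxorubicin). Levels are in CPM, counts scaled to a common total of all gene rows. A group level is the summed count of its cells over their summed total, with an exact Poisson 95% interval. Intervals cover counting error only, since PCR copies that carry no molecular identifier cannot be counted as separate molecules. The labels were set beside summed CPM of marker genes that contain none of the 6 members. The 18 oocyte markers summed to 13161 to 45903 CPM in cells labelled oocyte, above the 16 granulosa markers in each of these 32 cells. The granulosa markers summed to 3.98 to 495 CPM (control) and 20.8 to 428 CPM (doxorubicin) over oocytes, and to 226 to 6110 CPM (control) and 1099 to 4601 CPM (doxorubicin) over granulosa cells. Oocyte markers reached 231 to 10869 CPM in control and 275 to 29540 CPM in doxorubicin granulosa cells, where Oog1 was the only oocyte marker at 0 in both groups. They lay below the granulosa markers in 10 of 16 control and 5 of 13 doxorubicin granulosa cells. The 8 stroma markers reached 13316 CPM in the control and 7961 CPM in the doxorubicin granulosa group, with medians of 815 and 688 CPM.

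Amh encodes the hormone that gives the group its name (chromosome 10, 80805243 to 80807648, plus strand, mm10). In control granulosa cells its level ran from 0 to 155 CPM over cells with a median of 2.94 CPM, and the group level was 20.7 CPM (20.004 to 21.3). In doxorubicin granulosa cells it ran from 0 to 54.6 CPM with a median of 6.88 CPM, and the group level was 14.1 CPM (13.5 to 14.8). The ranges overlapped, and the control level leaned on control granulosa cells 5 and 1 at 155 and 108 CPM. The log2 ratio of doxorubicin over control was -0.55 (-0.63 to -0.47), short of 2-fold, and it turned to 0.29 without control granulosa cell 5. In both oocyte groups the median cell was at 0, with a highest cell of 15.9 CPM in control oocyte 10 and 19.5 CPM in doxorubicin oocyte 11. The oocyte group levels were 1.77 CPM (1.59 to 1.97) and 1.87 CPM (1.68 to 2.09). Control granulosa cells stood 11.7-fold above control oocytes, a log2 ratio of 3.54 that was 2.71 without control granulosa cell 5 and 4.23 without control oocyte 16.

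Inha encodes the alpha chain shared by the inhibins (chromosome 1, 75507077 to 75510366, plus strand). It was the most abundant member, with 0.305 to 10830 CPM over the control granulosa cells, a median of 1260 CPM and a group level of 3290 CPM (3282 to 3299). Doxorubicin granulosa cells ran from 2.31 to 7373 CPM with a median of 620 CPM, and the group level was 2880 CPM (2871 to 2888). At least 1000 CPM was reached in 9 of 16 control and 6 of 13 doxorubicin granulosa cells, and the ranges overlapped. The log2 ratio was -0.19 (-0.20 to -0.19), and it turned to 0.10 without control granulosa cell 6. Control granulosa cells stood 33.7-fold above control oocytes in group level. Even so, Inha transcripts were near 0 in control granulosa cells 2 and 3, at 0.305 and 1.45 CPM.

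Inha was also read in oocytes, and there 3 cells set the group level. Control oocytes ran from 1.20 to 660 CPM with a median of 34.8 CPM and a group level of 97.7 CPM (96.3 to 99.1). Doxorubicin oocytes ran from 0.213 to 2489 CPM with a median of 21.0 CPM and a group level of 354 CPM (352 to 357). The log2 ratio of the group levels was 1.86 (1.84 to 1.88), although the median doxorubicin oocyte was below the median control oocyte. Doxorubicin oocytes 9, 11 and 12 were at 2489, 2089 and 1672 CPM and lay above every control oocyte, whereas the other 13 doxorubicin oocytes reached at most 53.9 CPM. These 3 cells held 95.1% of the Inha counts of their group.

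The beta chain genes were read in far fewer cells. Inhba encodes the beta A chain (chromosome 13, 16011851 to 16031621, plus strand). In granulosa cells it had at least 5 reads in 2 of 29 cells, control cell 6 at 53.3 CPM and doxorubicin cell 10 at 48.8 CPM. These cells held 99.4% and 99.8% of the Inhba counts of their groups, and the group levels of 3.97 CPM (3.68 to 4.27) and 3.12 CPM (2.84 to 3.43) were each the level of 1 cell spread over a group. The log2 ratio of doxorubicin over control granulosa cells, -0.35, moved to 7.02 without the first cell and to -7.47 without the second. In oocytes 3 of 16 control and 3 of 16 doxorubicin cells had at least 5 reads, up to 4.17 CPM in control oocyte 8 and 26.6 CPM in doxorubicin oocyte 12. The oocyte group levels were 0.557 CPM (0.457 to 0.672) and 2.32 CPM (2.10 to 2.55). No group level of Inhba reached 5 CPM, the level below which a gene was not counted as differing.

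Inhbb encodes the beta B chain (chromosome 1, 119415465 to 119422248, minus strand). It had at least 5 reads in 7 of 16 control granulosa cells (43.8%, exact binomial interval 19.8% to 70.1%) and in 3 of 13 doxorubicin granulosa cells (23.1%, 5.04% to 53.8%). The median cell was at 0 in both groups, and the highest cells were control cell 1 at 231 CPM and doxorubicin cell 15 at 148 CPM. The group levels were 25.0 CPM (24.2 to 25.7) and 12.8 CPM (12.2 to 13.4), a log2 ratio of -0.96 (-1.04 to -0.88) that lay just short of 2-fold. Each value leaned on 1 cell, since the ratio moved to -3.01 without doxorubicin granulosa cell 15 and to -0.11 without control granulosa cell 1. Doxorubicin granulosa cell 15 was also the cell with the highest blood and immune marker sum, 33378 CPM, of which Hba-a1, a haemoglobin gene, made 20976 CPM. The part of those transcripts in the result was not tested. In oocytes Inhbb had group levels of 1.02 CPM (0.885 to 1.17) and 3.56 CPM (3.29 to 3.85), with doxorubicin oocyte 11 at 53.0 CPM and control oocytes at no more than 7.91 CPM. Control granulosa cells stood 24.4-fold above control oocytes.

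Amhr2, the receptor for anti-Müllerian hormone (chromosome 15, 102445367 to 102454633, plus strand), was the member read most evenly across granulosa cells. Control granulosa cells ran from 0.0814 to 1931 CPM with a median of 389 CPM and a group level of 604 CPM (601 to 608). Doxorubicin granulosa cells ran from 24.0 to 1283 CPM with a median of 440 CPM and a group level of 542 CPM (538 to 546). At least 100 CPM was reached in 13 of 16 control and 12 of 13 doxorubicin granulosa cells, and the ranges overlapped. The log2 ratio was -0.16 (-0.17 to -0.14), and it was 0.10 without control granulosa cell 10. The control cells near 0 were cells 2 and 13, whose stroma marker sums of 8342 and 13316 CPM were among the 3 highest of the 29 granulosa cells. The third of these, control granulosa cell 8, had 8404 CPM of stroma markers but 335 CPM of Amhr2. Doxorubicin granulosa cell 13 had 7961 CPM of stroma markers and 359 CPM of Amhr2. The part of stroma transcripts in the Amhr2 levels of these cells was not tested.

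In oocytes Amhr2 was the 1 member whose group level was lower after doxorubicin. Control oocytes ran from 0 to 113 CPM with a median of 8.48 CPM and a group level of 26.0 CPM (25.3 to 26.7), and doxorubicin oocytes ran from 0 to 151 CPM with a median of 3.85 CPM and a group level of 15.5 CPM (14.9 to 16.1). The log2 ratio was -0.75 (-0.82 to -0.68), short of 2-fold. It moved past 2-fold, to -1.69, without doxorubicin oocyte 11, the highest cell at 151 CPM. At least 10 CPM was reached in 8 of 16 control and 3 of 16 doxorubicin oocytes. Control granulosa cells stood 23.2-fold above control oocytes.

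Fst encodes follistatin (chromosome 13, 114452290 to 114458951, minus strand). Of the 5 members that passed 5 CPM, it had the log2 ratio farthest from 0 between the treatments of granulosa cells. Control granulosa cells ran from 0 to 1073 CPM with a median of 119 CPM and a group level of 283 CPM (280.3 to 285). Doxorubicin granulosa cells ran from 0 to 506 CPM with a median of 44.8 CPM and a group level of 109 CPM (107 to 110.4). At least 100 CPM was reached in 10 of 16 control and 4 of 13 doxorubicin granulosa cells, and the ranges overlapped. The level after doxorubicin was 2.60-fold lower, a log2 ratio of -1.38 (-1.41 to -1.35), with a range of -1.92 to -1.08 when each cell was left out in turn. The lower value came without doxorubicin granulosa cell 7 and the higher one without control granulosa cell 8. Among cells with more granulosa than oocyte markers, 5 doxorubicin and 10 control cells, the ratio was -1.15. The highest control cell for Fst, cell 8, carried 8404 CPM of stroma markers and 10869 CPM of oocyte markers against 406 CPM of granulosa markers. Their part in its level was not tested.

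In oocytes the Fst difference ran the other way in the group sums. Control oocytes ran from 0 to 15.2 CPM with a median of 0.138 CPM and a group level of 4.29 CPM (4.01 to 4.59). Doxorubicin oocytes ran from 0 to 187 CPM with a median of 1.44 CPM and a group level of 26.2 CPM (25.4 to 26.9), a log2 ratio of 2.61 (2.50 to 2.72). Leaving out control oocyte 16 gave 3.56, and leaving out doxorubicin oocyte 9 gave 2.05. The highest cells were again doxorubicin oocytes 9, 11 and 12, at 187, 162 and 108 CPM. They held 93.5% of the Fst counts of the group, and the other 13 doxorubicin oocytes reached at most 8.03 CPM, within the control range.

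**Figure D1:**
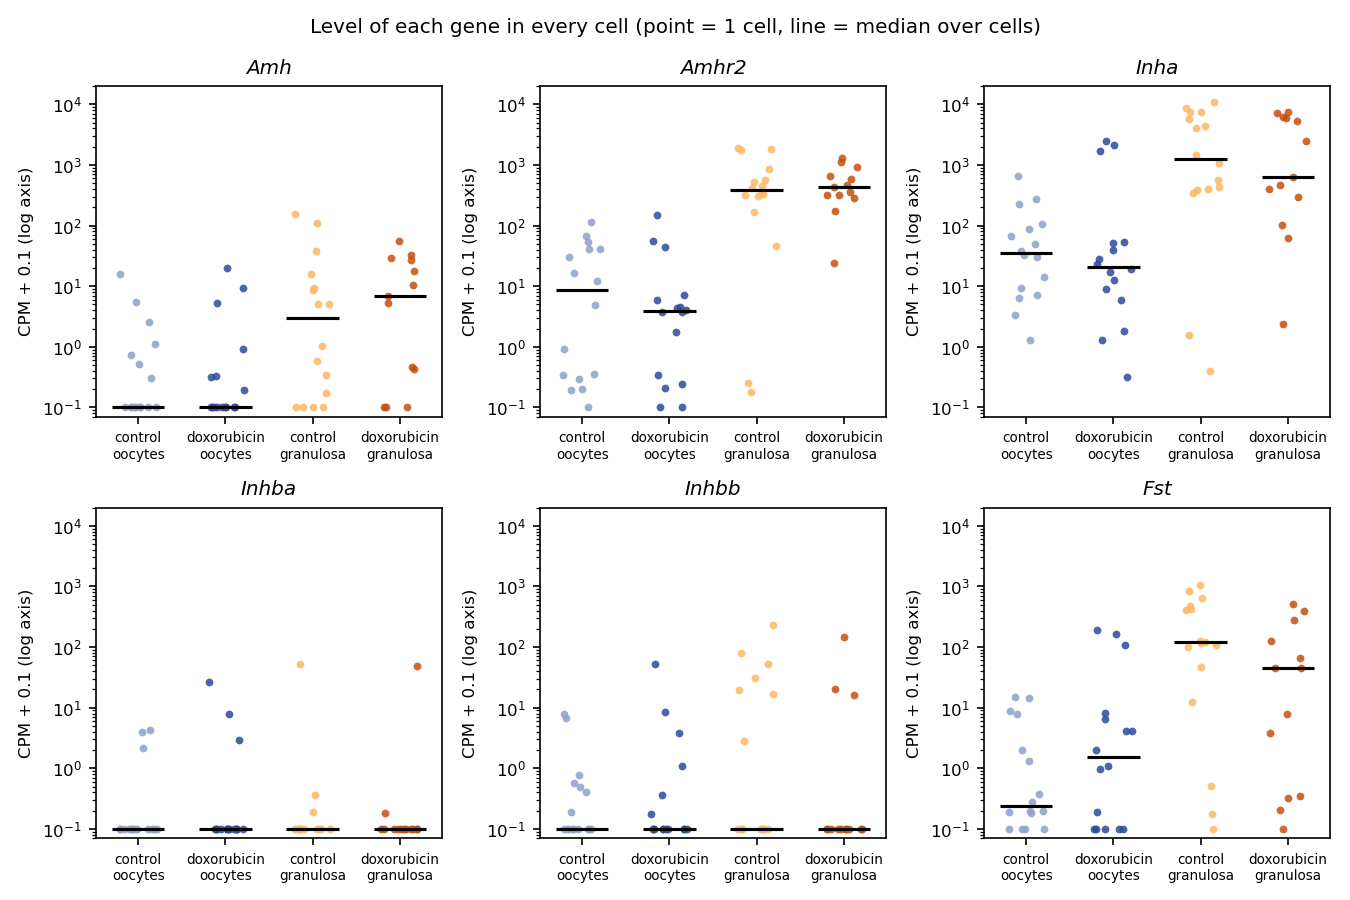
Level of each gene in every cell, in CPM plus 0.1 on a log axis, by group; each point is 1 cell and the line is the median over cells. Inha and Fst in doxorubicin oocytes show 3 cells apart from the rest, Amhr2 is high in nearly all granulosa cells, and Inhba is above 10 CPM in 1 cell of each granulosa group.

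Doxorubicin oocytes 9, 11 and 12 held most of the counts of all 6 members in their group, and their other transcripts are therefore given beside them. They also held 95.8% of the Amh, 85.9% of the Amhr2 and 97.3% of the Inhbb counts of the doxorubicin oocytes. For Inhba 71.5% lay in the 3 cells, all of it in oocyte 12. Their granulosa marker sums were 423, 236 and 212 CPM, where the other 13 doxorubicin oocytes ran from 20.8 to 428 CPM with a median of 78.2 CPM. Hsd3b1, a steroidogenic enzyme gene, was at 598, 670 and 75.2 CPM in the 3 cells and at most 27.8 CPM in the other 13. In control oocytes it reached 450 CPM, in control oocyte 14, which is above doxorubicin oocyte 12. Oocyte marker sums were 18558, 13430 and 13161 CPM in them and 15880 to 42697 CPM in the others. Stroma markers summed to 1882, 8.80 and 1468 CPM in the 3 cells, to at most 551 CPM in the other 13 and to at most 917 CPM in control oocytes. Over control oocytes the granulosa markers ran from 3.98 to 495 CPM and the oocyte markers from 18023 to 45903 CPM.

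Without these 3 oocytes, an alternative chosen after the data were seen, the log2 ratio of doxorubicin over control was -2.22 for Inha and -1.07 for Fst. Among oocytes with less than 200 CPM of granulosa markers, 11 doxorubicin and 14 control cells, it was -1.81 for Inha and -1.25 for Fst. The 3 oocytes are absent from both sets. They were picked for their high levels and left out of 1 group only, so a lower ratio without them follows from that choice. The marker limit is not a separate check. Over the 32 oocytes the granulosa marker sum had a Spearman's rho of 0.60 with Inha, 0.56 with Amhr2 and 0.52 with Fst. The limit also lies just under the sums of doxorubicin oocytes 12 and 11, 212 and 236 CPM. Fst was under 5 CPM in both groups of each set, at 2.05 CPM against 4.29 CPM without the 3 oocytes and at 1.69 CPM against 4.03 CPM under the marker limit, and its difference of cell medians over all oocytes was 1.08. Inha was at 20.2 CPM against 71.0 CPM under the marker limit, and Amhr2 at 2.79 CPM against 18.2 CPM, a log2 ratio of -2.70. Amh, Inhba and Inhbb stayed under 5 CPM there.

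In oocytes 3 members passed 5 CPM in either group, Amhr2, Inha and Fst. Of these, 2 were at least 2-fold higher in doxorubicin than in control oocytes, Inha and Fst, and 0 were at least 2-fold lower. Fst passed 5 CPM only through the doxorubicin oocytes, at 26.2 against 4.29 CPM, so its count as higher follows from the filter. Of the 11119 genes that passed 5 CPM in either oocyte group, 6.3% were at least 2-fold higher and 2.45% at least 2-fold lower. Among oocytes under 200 CPM of granulosa markers the count was 0 higher and 2 lower, and no share of all genes is given for that set. The median log2 ratio of the 6 members, including those under 5 CPM, was 1.83 over all oocytes and -2.26 in that set, and that of the 11119 genes was 0.01 over all oocytes.

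In granulosa cells 5 members passed 5 CPM, all but Inhba, of which 0 were at least 2-fold higher after doxorubicin and 1, Fst, was at least 2-fold lower. Among the 12194 genes that passed 5 CPM in either granulosa group the shares were 20.6% higher and 20% lower, so 1 of 5 is near the share of all genes. The median log2 ratio of all 6 members was -0.45, beside -0.03 for all 12194 genes. Inhbb passed 2-fold lower as well in 13 of the 29 ratios that left out 1 cell, which made the number 2. The share of all genes is not given for those ratios.

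**Figure D2:**
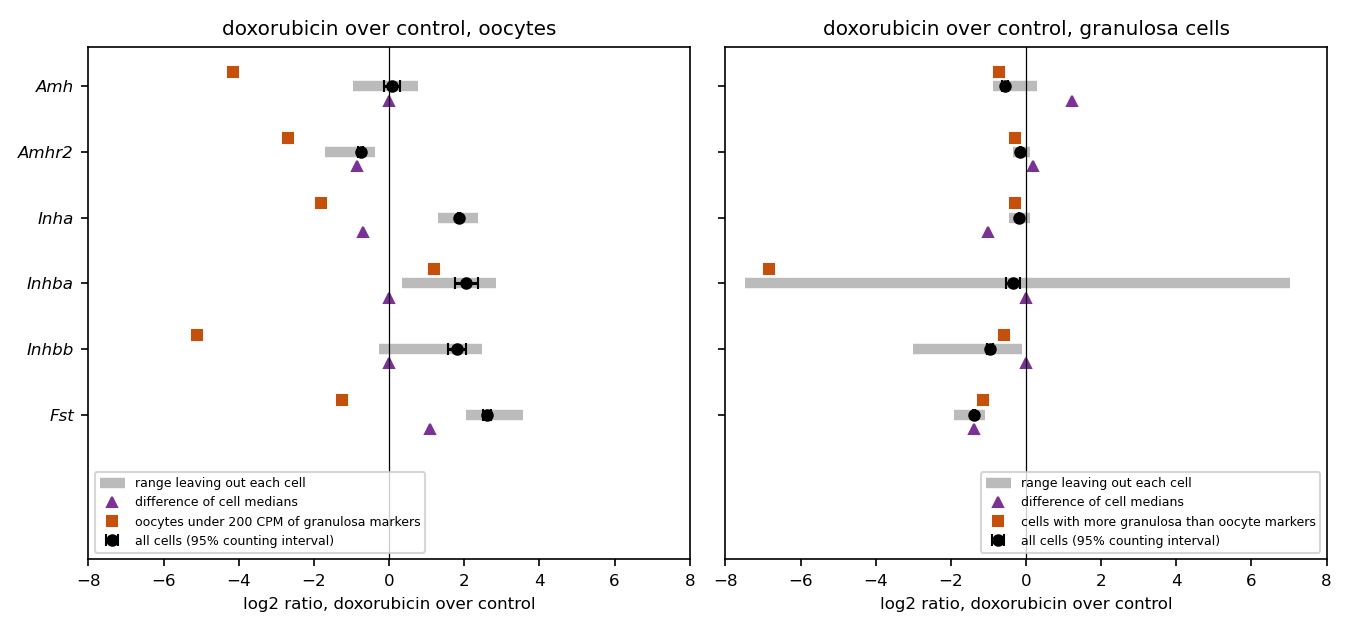
Log2 ratio of doxorubicin over control for each gene, in oocytes (left) and granulosa cells (right). Black points are group CPM ratios with 95% counting intervals, grey bars span the values with each cell left out, triangles are differences of the cells' medians of log2(CPM + 1), and squares are the subsets named in each panel. Inha and Fst in oocytes are at 1.86 and 2.61 over all cells and at -1.81 and -1.25 in the subset, and Fst in granulosa cells is below 0 throughout.

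Group CPM of all 6 genes was higher in granulosa cells than in oocytes in both treatments, although the Inhba values were under 5 CPM. CPM is a share of a library, so these ratios do not give the number of transcripts in a cell. In controls the log2 ratio of granulosa cells over oocytes was 3.54 for Amh, 4.54 for Amhr2, 5.07 for Inha, 2.83 for Inhba, 4.61 for Inhbb and 6.04 for Fst. Fst thus had the largest ratio, a 65.9-fold difference (interval 5.94 to 6.14 on the log2 scale), and its log2 ratio was 6.99 without control oocyte 16. Inhbb was at 3.76 without control granulosa cell 1 and at 5.29 without control oocyte 13. After doxorubicin the ratios were 2.92 for Amh, 5.13 for Amhr2, 3.02 for Inha, 0.43 for Inhba, 1.85 for Inhbb and 2.05 for Fst. Inhba turned to -4.54 in controls without granulosa cell 6 and to -6.69 after doxorubicin without granulosa cell 10, and Inhbb turned to -0.20 after doxorubicin without granulosa cell 15. Without doxorubicin oocyte 11 the ratios after doxorubicin were 3.97 for Amh, 6.07 for Amhr2 and 3.93 for Inhbb.

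Of the 5 members that passed 5 CPM, again all but Inhba, the number at least 2-fold higher in granulosa cells was 5 in controls, where 31.3% of 12373 genes were as high, and 5 after doxorubicin, where 28.2% of 12428 genes were. No member was at least 2-fold lower, beside 29% and 27.6% of genes. In controls Amh, Inhbb and Fst passed 5 CPM only through the granulosa group, at 20.7, 25.0 and 283 CPM. After doxorubicin Amh and Inhbb did so, at 14.1 and 12.8 CPM. At such levels the filter alone puts these members past 2-fold, so their part of the counts is not a separate result. The medians of all 6 members were 4.57 and 2.48, beside 0.03 and -0.02 for all genes. Whole ranges of granulosa cells and oocytes overlapped for every member in both treatments. For Amhr2, 13 of 16 control granulosa cells lay above every control oocyte, and 12 of 13 did so after doxorubicin. For Fst the counts were 12 of 16 and 3 of 13, and for Inha they were 9 of 16 and 5 of 13. Without doxorubicin oocytes 9, 11 and 12, the ratio after doxorubicin was 7.10 for Inha and 5.73 for Fst.

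Shares of cells with at least 5 reads gave a similar order of the genes. In the 29 granulosa cells Inha was read in 28, Amhr2 in 27, Fst in 23, Amh in 18, Inhbb in 10 and Inhba in 2. In the 32 oocytes the numbers were 31 for Inha, 21 for Amhr2, 16 for Fst, 10 for Amh, 8 for Inhbb and 6 for Inhba. Detection alone thus separated the cell types little for Inha, whose median level differed between control granulosa cells and control oocytes by 5.13 on the log2(CPM + 1) scale. After each cell was thinned to 5000000 counts, Amh was read in 8 of 16 control and 8 of 13 doxorubicin granulosa cells and in 5 and 3 of 16 oocytes, and Fst was read in 13 of 16 and 9 of 13 granulosa cells and in 5 and 9 of 16 oocytes. The median depths of the groups are those given above. Control granulosa cell 2 had at least 5 reads of none of the 6 genes, and control granulosa cell 6 had them of all 6.

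Levels can be set beside each other between genes only per transcript length, here CPM per kilobase of the longest transcript in GENCODE M21. In control granulosa cells the order was Inha at 2231, Amhr2 at 312, Fst at 96.8, Amh at 12.4, Inhbb at 5.86 and Inhba at 0.621 CPM per kilobase. After doxorubicin the order was the same, with 1952, 279.7, 37.2, 8.46, 3.01 and 0.489 CPM per kilobase. Inside single cells the neighbours in this order often changed places. Inha lay above Amhr2 in 13 of 16 control and 9 of 13 doxorubicin granulosa cells, and Fst lay above Amh in 13 of 16 and 9 of 13. The alpha chain gene exceeded the summed beta chain genes 344-fold in the control and 557-fold in the doxorubicin granulosa group on this scale.

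**Figure D3:**
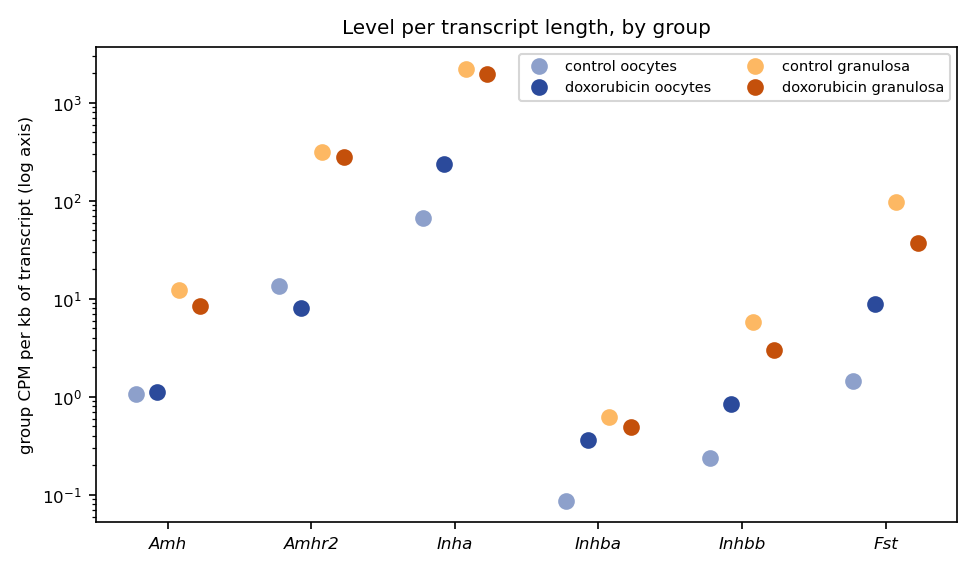
Group level of each gene in CPM per kilobase of its longest transcript, on a log axis, with 1 point for each of the 4 groups. Inha is highest and Inhba lowest in every group, and both granulosa points lie above both oocyte points for every gene.

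The sets of granulosa cells with each member overlapped. All 18 granulosa cells with at least 5 reads of Amh also had at least 5 reads of Amhr2 and of Inha, so transcripts of the hormone and of its receptor were read in the same libraries, where Inha and Amhr2 were found in nearly every granulosa cell. Of these 18 cells, 14 also had Fst. All 10 cells with Inhbb had Inha, and 9 of them had Amh. Of the 23 cells with Fst, all had Inha and 22 had Amhr2. Across the 29 granulosa cells Spearman's rho of CPM was 0.72 between Amh and Inha, 0.65 between Inha and Inhbb, 0.62 between Inha and Fst and 0.42 between Amh and Amhr2. These correlations are across cells, which share a library preparation and differ in depth and in marker sums, and they are given as a description.

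In the same 29 cells the oocyte marker sum had a rho of -0.35 to -0.23 and the stroma marker sum a rho of -0.58 to -0.21 with the 6 members. Hsd3b1 had a rho of 0.73 with Inha, 0.62 with Fst, 0.58 with Inhbb and 0.56 with Amh, but 0.26 with Amhr2. Amhr2 instead went with the granulosa marker sum, at 0.74, and against the stroma marker sum, at -0.58. Hsd3b1 made up nearly the whole of the theca and steroidogenic list in granulosa cells, at 1801 CPM in controls and 758 CPM after doxorubicin. Its median cell was at 490 CPM in controls and 0.831 CPM after doxorubicin, with less than 2 CPM in 4 of 16 and 8 of 13 cells, and doxorubicin granulosa cell 8 held 76.3% of the counts of its group. The part of this difference in the lower Fst level was not tested. Cyp17a1 and Insl3, which mark androgen-producing theca cells, were at 0 in both granulosa groups. Star was at 0.701 CPM in controls and at 0 after doxorubicin. Lhcgr, also in this list, went the other way, at 0.089 and 1.85 CPM, with at least 5 reads in 1 and 2 cells. Cyp11a1, the remaining listed gene, had no row.

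By the same measure the genes most like each member were ranked among 9439 genes read in enough granulosa cells. For Amh they were Kctd14 at 0.74, Gja1 at 0.72, which encodes a gap junction protein, and Inha at 0.72. For Amhr2 they were Cpe at 0.84, Itga6 at 0.78 and Dtnb at 0.76. For Inha they were Slc18a2 at 0.82, Tox2 at 0.80 and Dynlt1f at 0.80. For Inhbb they were Fshr at 0.81, the receptor for follicle-stimulating hormone, Nap1l5 at 0.81 and Platr25 at 0.76. For Fst they were Ttc9c at 0.75, Kazald1 at 0.70 and Mob1b at 0.68, and Inhba was read in too few cells to rank. In control and doxorubicin granulosa cells apart, rho with Inhbb was 0.87 and 0.63 for Fshr, 0.96 and 0.50 for Nap1l5 and 0.75 and 0.84 for Platr25. Fshr had at least 5 reads in 9 granulosa cells, 8 of which were among the 10 with Inhbb, so the shared cells were 80% of the Inhbb and 88.9% of the Fshr cells. The genes named here are the highest of 9439 by choice. Their values, and the cells shared by Fshr and Inhbb, are therefore not a separate result.

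**Figure D4:**
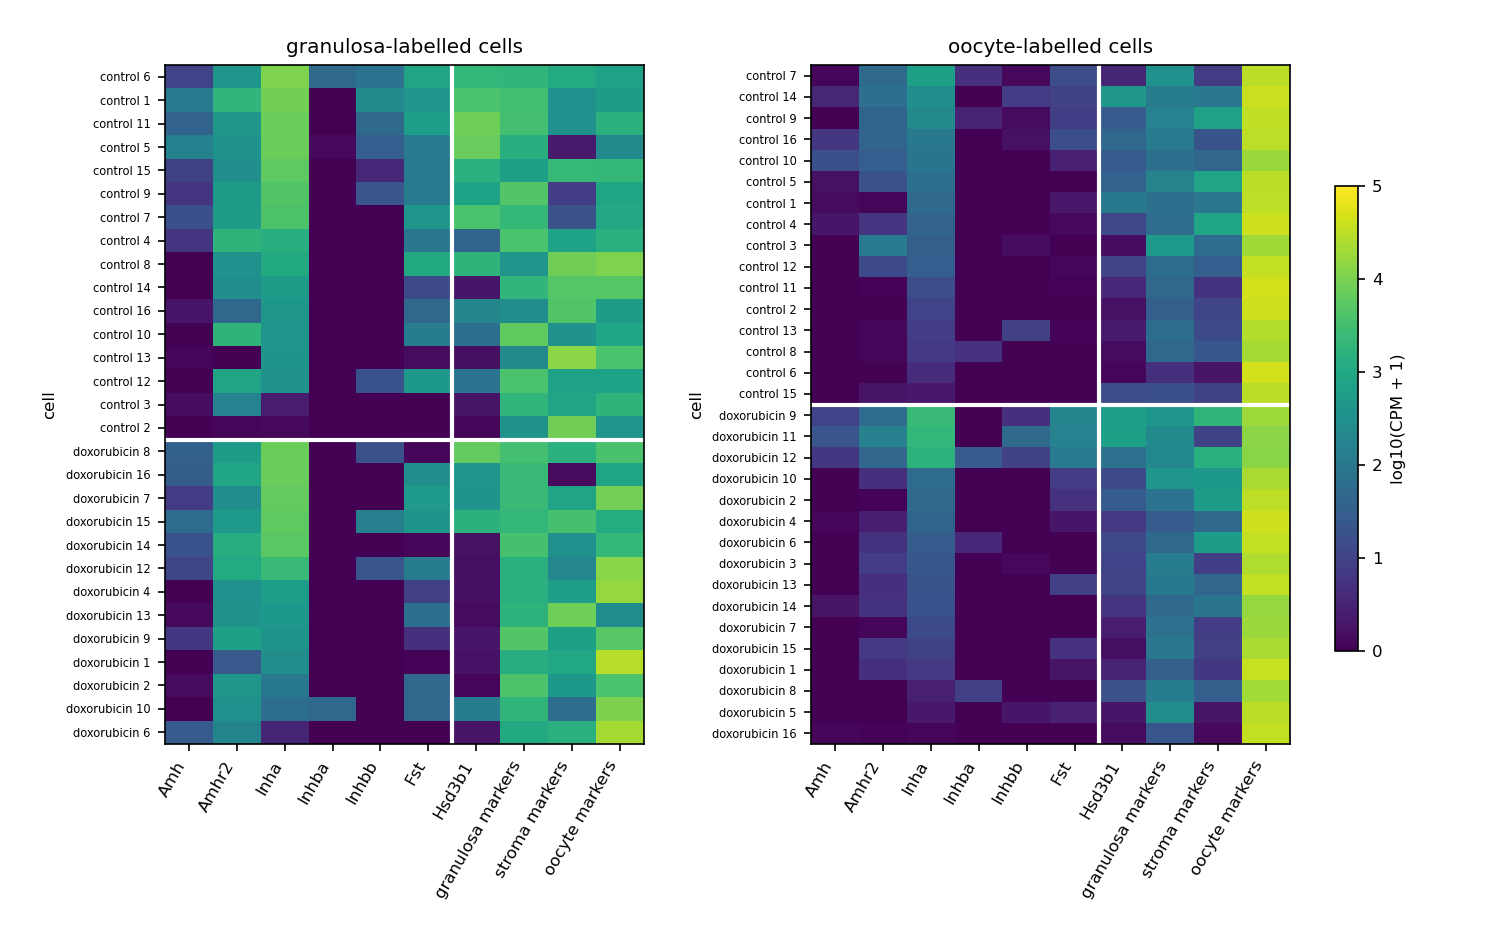
Level of the 6 genes, of Hsd3b1 and of 3 marker sums in every granulosa-labelled (left) and oocyte-labelled (right) cell, as log10(CPM + 1), with cells ordered by Inha inside each treatment group. Doxorubicin oocytes 9, 11 and 12 head their group with Inha, Fst and Amh together, and many doxorubicin granulosa cells show oocyte marker sums above their granulosa marker sums.

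Other genes of the same signalling system were taken from a list of 32, of which 30 had a row. In oocytes 20 of these passed 5 CPM in either group, and 2 were at least 2-fold higher and 0 lower after doxorubicin, beside the 6.3% and 2.45% of all genes given above. They were Tgfbr3l, a co-receptor gene, with 2.30 CPM in controls and 7.34 CPM after doxorubicin and a log2 ratio of 1.67 (1.52 to 1.83), and Pcsk5, which encodes a convertase that cleaves hormone precursors, with 2.91 and 8.70 CPM and a ratio of 1.58 (1.44 to 1.72). Among oocytes under 200 CPM of granulosa markers these ratios were -2.31 and -0.12. Without doxorubicin oocyte 12 the value of Tgfbr3l was 0.74, and without doxorubicin oocyte 9 that of Pcsk5 was 0.26. Without control oocyte 10 Pcsk5 was at 2.85. Tgfbr3l and Pcsk5 passed 5 CPM only through the doxorubicin oocytes, at 7.34 and 8.70 CPM. The list median was 0.23.

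In granulosa cells 25 of the 30 genes passed 5 CPM in either group, with 5 at least 2-fold higher and 6 lower after doxorubicin and a list median of -0.18. These counts are near the 20.6% and 20% of all genes. Among the receptor genes, Acvr2a, an activin type II receptor, was at 9.85 CPM in controls and 27.8 CPM after doxorubicin with a log2 ratio of 1.498 (1.42 to 1.58), and it was short of 2-fold, at 0.62, without doxorubicin granulosa cell 14 and at 2.14 without control granulosa cell 3. Bmpr1a, a type I receptor, was at 34.95 and 71.6 CPM with a ratio of 1.03 (0.99 to 1.08), and its leave-one-out range of 0.82 to 1.43 began below 2-fold without doxorubicin granulosa cell 8. Of the 8 listed SMAD genes, which encode intracellular signal carriers, 2 passed 2-fold, Smad1 at 1.38 (1.30 to 1.46) and Smad3 at -1.36 (-1.41 to -1.31). Smad1 was at 2.17 without control granulosa cell 16, and Smad3 was at -0.90 without control granulosa cell 11. Smad2, Smad4 and Smad5 were at 0.41, 0.57 and -0.64, and the other 3 were under 5 CPM. The other 3 receptor and regulator genes past 2-fold were Acvr1 at 6.68, Acvr1b at -8.52 and Nr0b1 at -2.70. Acvr1 had at least 5 reads in 2 doxorubicin and 1 control granulosa cells, Acvr1b in 0 and 3, and Nr0b1 in 1 and 2. Without control granulosa cell 15 Nr0b1 was at -0.80.

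Among regulators known to act on the Amh promoter, Sox9 was at 21.7 CPM in control and 2.40 CPM in doxorubicin granulosa cells, a log2 ratio of -3.17 (-3.33 to -3.01), and Nr5a1 was at 104 and 47.8 CPM, a ratio of -1.12 (-1.16 to -1.08). Nr5a1 was short of 2-fold, at -0.92, without control granulosa cell 10 and at -2.07 without doxorubicin granulosa cell 8. Sox9 was at -4.96 without doxorubicin granulosa cell 15 and at -2.38 without control granulosa cell 3. Wt1 was higher after doxorubicin, at 152 against 57.2 CPM, a ratio of 1.41 (1.37 to 1.44). Of the other listed regulators, Gata4 at -0.76 and Foxl2 at 0.25 were short of 2-fold, and Nr0b1 is given above. Fshr was at 42.7 CPM in controls and 3.82 CPM after doxorubicin, a ratio of -3.48 (-3.61 to -3.36), with at least 5 reads in 6 of 16 and 3 of 13 cells, and it was at -4.32 without doxorubicin granulosa cell 15. Wt1 and Fshr are also in the granulosa marker list. In the cells with more granulosa than oocyte markers the ratios were -2.23 for Sox9, -1.65 for Nr5a1, 1.03 for Wt1 and -3.46 for Fshr.

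**Figure D5:**
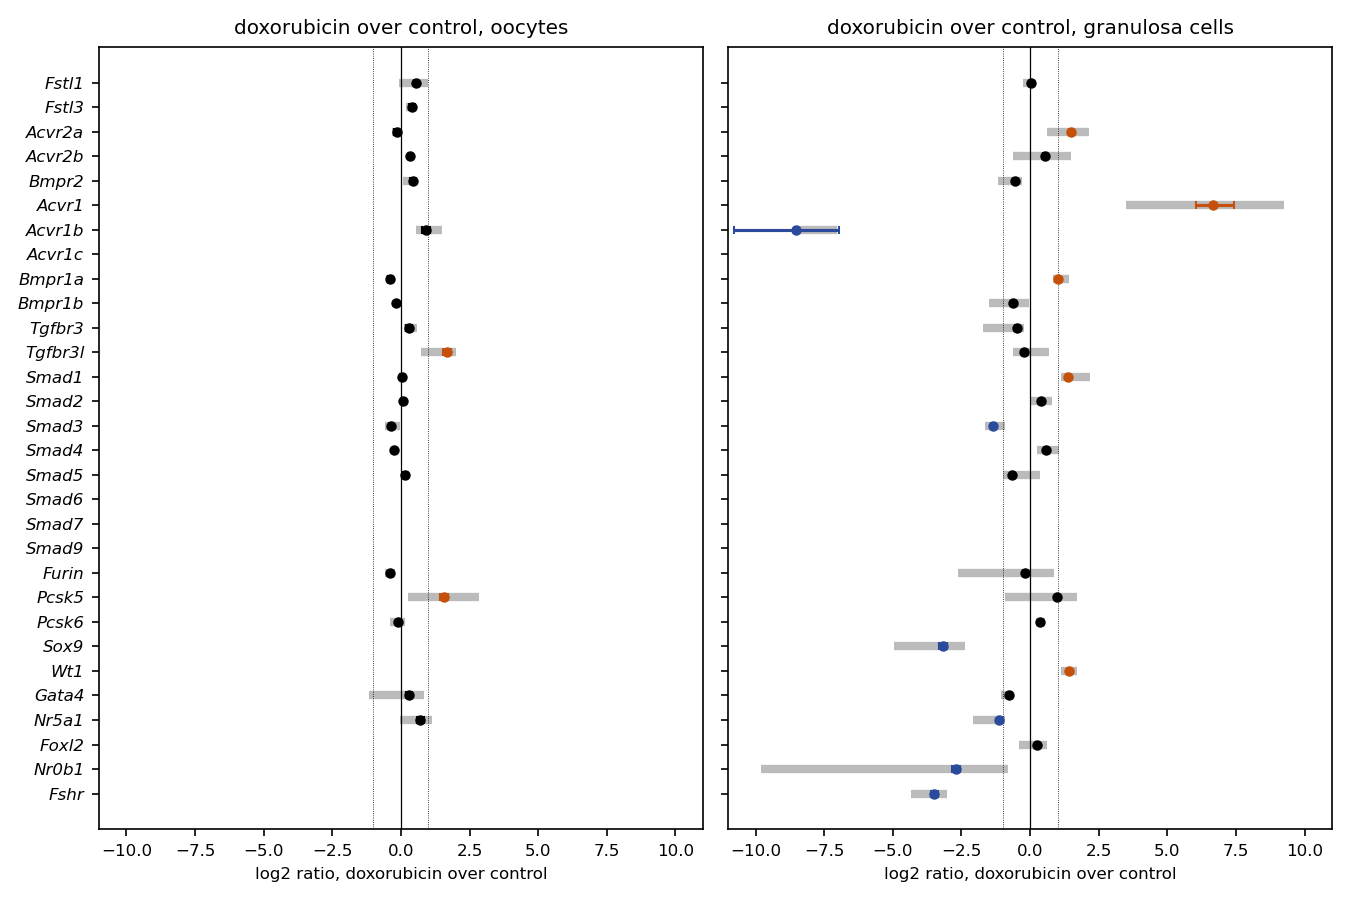
Log2 ratio of doxorubicin over control for the 30 other signalling genes, in oocytes (left) and granulosa cells (right), for genes that passed 5 CPM in either group. Points carry 95% counting intervals, grey bars span the values with each cell left out, dotted lines mark 2-fold, and orange and blue points are at least 2-fold higher and lower. The oocyte panel has 2 orange points and 0 blue ones, and the granulosa panel has 5 and 6.

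Between the cell types, in controls 16 of 25 genes with at least 5 CPM were at least 2-fold higher in granulosa cells and 4 were lower, with a list median of 1.98, and after doxorubicin 13 of 23 were higher and 3 lower, with a median of 1.82. The shares of all genes were 31.3% higher and 29% lower in controls and 28.2% and 27.6% after doxorubicin. In controls Tgfbr3l, Pcsk5, Sox9, Wt1, Nr5a1, Foxl2, Nr0b1 and Fshr passed 5 CPM only through the granulosa group, at 20.4 to 104 CPM. After doxorubicin Acvr1, Wt1 and Foxl2 did so, at 10.8 to 152 CPM. At such levels the filter alone puts these genes past 2-fold, so their part of the counts is not a separate result. Pcsk6, another precursor convertase gene, was at 516 CPM in granulosa cells of controls against 72.9 CPM in their oocytes, a log2 ratio of 2.82 (2.80 to 2.85). Fstl1, a follistatin-like gene, was at 182 and 10.98 CPM with a ratio of 4.05 (3.99 to 4.11). Tgfbr3l was at 73.3 and 2.30 CPM with a ratio of 4.99 (4.86 to 5.13). The transcription factor genes Gata4 and Nr5a1 had ratios of 4.61 and 4.67, and Smad3 and Smad5 had 1.87 and 1.98. Without control granulosa cell 3 Smad5 was at 0.98, short of 2-fold, and without control granulosa cell 1 Tgfbr3l was at 4.08. Smad4, the shared signal carrier, was higher in oocytes, at 136 against 64.8 CPM, a ratio of -1.07 (-1.10 to -1.03), and it was short of 2-fold, at -0.95, without control granulosa cell 10.

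After doxorubicin the same direction held for Pcsk6 at 3.29, Fstl1 at 3.53, Tgfbr3l at 3.11 and Gata4 at 3.56. Nr5a1 at 2.85 and Smad5 at 1.17 also stayed past 2-fold, although Smad5 was at 0.82 without doxorubicin granulosa cell 12. Smad3 and Smad4, past 2-fold in controls, were short of it after doxorubicin, at 0.87 and -0.25. The other genes with the largest levels past 2-fold in the comparison after doxorubicin were Bmpr1a at 2.36, Pcsk5 at 3.32, Wt1 at 6.13 and Foxl2 at 4.44. Gata4, Wt1 and Foxl2, like Fshr, are also in the granulosa marker list that was set beside the cell labels. Their higher values in granulosa cells, and their part of the counts and list medians, are therefore not separate from that check of the labels. Pcsk5 had at least 5 reads in 4 of 13 granulosa cells and 9 of 16 oocytes, and its ratio was 1.42 without doxorubicin granulosa cell 1 and 4.65 without doxorubicin oocyte 9. Other ratios also leaned on 1 cell. Fstl1 was at 4.17 and Gata4 at 5.02 without doxorubicin oocyte 9, Tgfbr3l was at 4.05 without doxorubicin oocyte 12, and Foxl2 was at 3.77 without doxorubicin granulosa cell 14.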

How the data were processed

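Single cells were lysed and poly(A) RNA was amplified with a SMART-seq v4 kit and tagged with a Nextera XT kit, and libraries were sequenced as paired ends, per the labels' protocols. The deposited table holds the authors' estimated counts for each gene in each cell, and 34.0% of its nonzero values are not whole. Per the submitters' processing notes, mm10 was the genome build and Partek, Bowtie2, HISAT2 and DESeq2 were used, with versions and roles not given in the sources used here. Whether counting used strand is not given either, so reads of Fst and its antisense gene Gm47040, and of Inhba and the overlapping Gm48444 and B230303A05Rik, cannot be told apart. A date replaced the gene symbol in 22 rows (0.144% of counts), which stayed in the totals.

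Estimated counts were rounded, summed over the cells of a group and divided by the group total to give CPM. A ratio sets a group under 3 counts to 3 counts and has an exact conditional binomial (Clopper-Pearson) interval of 95%. Genes needed at least 5 CPM in either group and a 2-fold ratio to be counted as higher or lower. With 1 sample a group no test was made. The members, the marker and signalling lists, and the rules were chosen with earlier results of these data known. The genes named are the 6 members, up to 8 signalling genes past 2-fold per comparison with the highest levels, and the 3 genes most like each member by Spearman's rho over the 29 granulosa cells, among genes with at least 5 CPM and at least 5 reads in 8 of them. Other signalling genes, past 2-fold or short of it, were named after their values were seen, and so were counts of cells above 10, 100 or 1000 CPM. Gene spans are from GENCODE M21, matched by symbol.

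Alternatives were the equal-weight mean of cells, the difference of cell medians with a pseudocount of 1, scaling of the group sums by edgeR TMM or by DESeq2 size factors (relative factors 0.98 to 1.02), a floor of 1 count, other filters, thinning each cell to 5000000 counts, marker-based subsets of cells and leaving out each cell. The calculation was tested on simulated data in which the cells of a group varied around a common level. Genes whose counts lie mostly in 1 cell were not simulated, so that test does not cover them. The tools were R 4.3.3 (DESeq2 1.42.0, edgeR 4.0.16) and Python 3.11.15 (matplotlib 3.10.9, scipy 1.17.1, numpy 2.4.6 and pandas 2.3.3).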

Additional observations from a re-analysis of the deposited data

Results flagged for a closer look

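The group level of Fst differed between the treatments in opposite directions in the 2 cell types, with a log2 ratio of doxorubicin over control of 2.61 in oocytes and -1.38 in granulosa cells. The difference between the cell types was not tested, since each group is 1 sample. The ranges of the cells overlapped in both. In oocytes the value turned to -1.07 without doxorubicin oocytes 9, 11 and 12, which were picked for their high levels, and to -1.25 among oocytes with less than 200 CPM of granulosa markers. Both groups were then under 5 CPM, and the difference of the cells' medians was 1.08. Over the 32 oocytes the granulosa marker sum had a rho of 0.52 with Fst, so the marker limit is not a separate check. In granulosa cells the Fst ratio kept its sign with each cell left out, from -1.92 to -1.08.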

How the results depend on the processing

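With 1 sample a group, no alternative carries a test. The share of all genes is not given for any alternative, so the numbers of members below are not a result about the members. No paired analysis was possible because no result comes from a test and a cell number names a cell, not an animal. Comparing doxorubicin with control oocytes, the members' median log2 ratio was 0.00 for cell medians, -2.26 among oocytes under 200 CPM of granulosa markers, -2.70 without doxorubicin oocytes 9, 11 and 12, and 0.56 to 2.06 with each cell left out. The number at least 2-fold higher was 1, 0 and 0 in the first 3 of these, and 4 with a filter of 1 CPM or none. The number lower was 2 in both subsets and 0 to 1 with each cell left out. Inha turned to -0.71 for cell medians, -1.81 under 200 CPM of granulosa markers and -2.22 without the 3 oocytes, and Fst to -1.25 and -1.07 in the last 2.

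In granulosa cells the median ratio of doxorubicin over control was 0.00 for cell medians, -0.66 in cells with more granulosa than oocyte markers, -1.32 in those with more granulosa than oocyte and stroma markers (3 doxorubicin and 10 control cells, chosen after the data were seen), and -0.66 to -0.14 with each cell left out. The number lower was 2, 2, 4 and 1 to 2, and the number higher was 1 for cell medians.

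For control granulosa cells over control oocytes the median was 4.70 for equal-weight means and 3.44 for cell medians. It was 5.15 in both granulosa subsets, which hold the same 10 control cells. In the oocyte subset it was 4.78, and with each cell left out 4.06 to 4.98. After doxorubicin the median was 2.30 for equal-weight means, 3.62 for cell medians and 3.10 with more granulosa than oocyte markers. In the oocyte subset it was then 7.07, without the 3 oocytes 6.96, and with each cell left out 2.17 to 3.70. Inhbb turned to -5.33 there in cells with more granulosa than oocyte and stroma markers and ranged from -0.20, without doxorubicin granulosa cell 15, to 3.93 with each cell left out. TMM and DESeq2 scaling and a floor of 1 count kept the sign of all 24 member ratios. Where values moved, the cause was not tested beyond the cells left out.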

Other observations

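Inha and Fst came apart in a few granulosa cells, a pattern and a level of 1000 CPM that were both chosen after the values were seen. All 9 control granulosa cells with at least 1000 CPM of Inha had 99.3 to 1073 CPM of Fst. Of the 6 such doxorubicin granulosa cells, 2 had less than 1 CPM of Fst. They were doxorubicin granulosa cells 8 and 14, with 7373 and 5291 CPM of Inha against 0.227 and 0.243 CPM of Fst, and the highest of the 6 was at 506 CPM of Fst. Their granulosa marker sums were 3189 and 3479 CPM and their Amhr2 levels 577 and 1283 CPM. Hsd3b1 was at 6277 CPM in the first and 0.649 CPM in the second. Below that level of Inha, control granulosa cell 13 had 391 CPM of Inha and 0.407 CPM of Fst.

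A single granulosa cell per treatment carried almost all Inhba transcripts, and these 2 cells were unlike each other in the remaining members. Control granulosa cell 6 had the highest Inha level of all 61 cells, 10830 CPM, with 838 CPM of Fst and 79.1 CPM of Inhbb. Doxorubicin granulosa cell 10 had 62.2 CPM of Inha, 45.8 CPM of Fst and no read of Amh or Inhbb, and its oocyte marker sum of 10479 CPM exceeded its granulosa marker sum of 1848 CPM.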
